A study of Mus musculus with 4 samples.

Results

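The genes described here encode the D cyclins (Ccnd1, Ccnd2 and Ccnd3), their kinase partners (Cdk4 and Cdk6), the pocket protein that these kinases phosphorylate (Rb1), inhibitors of the kinases (Cdkn1b and Cdkn2c) and the Myc transcription factors Myc and Mycn. They are 10 of the 51826 genes in the deposited expression table, chosen by gene symbol, and each symbol matched 1 row. Expression was measured by RNA sequencing in cultures derived from mouse embryonic stem cells on a C57BL/6 background, at day 3 of induced mesoderm differentiation. The groups were 2 libraries from Stk40-/- cells, in which the Tribbles-related pseudokinase gene Stk40 was targeted, and 2 libraries from wild-type cells. Both groups received BMP4 at 10 ng/ml for 2 days in medium with 1% serum replacement. They then received 1 uM CHIR99021, a GSK3 inhibitor, with 15% serum replacement and 0.5% DMSO until collection. The series asks how loss of Stk40 bears on c-JUN protein and on mesoderm differentiation, and nothing in the labels says whether each genotype came from 1 line or whether the 2 libraries of a group came from separate cultures. The p-values therefore measure only the spread between these libraries, which may be technical, and a difference between lines cannot be told apart from an effect of the deletion.

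D cyclins are made in response to growth factors and Wnt signals, bind Cdk4 or Cdk6 and start the phosphorylation of the retinoblastoma protein, which releases E2F transcription factors and permits entry into S phase. The p27 protein of Cdkn1b binds cyclin-kinase complexes, and the p18 protein of Cdkn2c, of the INK4 class, binds Cdk4 and Cdk6 directly. Myc and Mycn, acting with Max, activate genes of growth and proliferation, and pluripotent stem cells are known for a short G1 phase with little dependence on D cyclins, which lengthens as they differentiate.

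Values are TPM, transcript abundances scaled for transcript length and library total, so levels can be set side by side between genes. Their sequencing depth is unknown, and no counting interval is given. A fold change is the difference of Stk40-/- from wild type in log2(TPM + 1), a scale that shrinks differences of low genes. It comes from limma fitted to the 15739 genes whose mean reached 1 TPM. Adjusted p-values are Benjamini-Hochberg values over all those genes with a threshold of 0.05, and the median log2 fold change of all tested genes was 0.07. As a check of the labels, Stk40 had 3.54 and 3.17 TPM in the Stk40-/- libraries and 28.9 and 39.9 TPM in the wild-type libraries. Its log2 fold change was -3.01 (SE 0.21, limma adjusted p = 0.139), so even the targeted gene did not pass the threshold. Some Stk40 RNA was still measured in both Stk40-/- libraries. The pluripotency markers examined were all at a mean of 1 TPM or more (10 of 10), with a sum of 1282 and 1250 TPM in Stk40-/- and of 1210 and 1355 TPM in wild-type libraries. Of 13 streak and mesoderm markers 9 reached that mean, and Kdr, Mesp1, Pdgfra and Tbx6 did not. Their sum was 424 and 277 TPM in Stk40-/- libraries and 1298 and 676 TPM in wild-type libraries, so wild-type library 1 stood apart from wild-type library 2 as well. Fibroblast markers, which could come from leftover feeder cells, summed to 48.3 and 49.9 TPM in Stk40-/- and to 51.9 and 65.2 TPM in wild-type libraries. Neuroectoderm markers summed to 95.0 and 134 TPM in Stk40-/- and to 82.3 and 89.6 TPM in wild-type libraries, and endoderm markers to between 3.89 and 7.01 TPM in the 4 libraries. In bulk RNA, fewer cells of a type and less RNA per cell cannot be told apart.

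Over the G1 regulators as a set, no gene passed limma, as was the case for every gene tested, Stk40 included (0.0% called). A lack of calls here does not show a lack of change. Mycn alone had an unadjusted p under 0.05, a threshold that 11.0% of all tested genes met. In 8 of the 10 genes the 2 groups did not overlap, with 6 higher and 2 lower in both Stk40-/- libraries. These include Cdkn2c, which was under the filter for tested genes. The like count was 7 of the 9 tested G1 regulators, beside a share of 44.0% with separate groups among all tested genes. By direction, Stk40-/- lay above wild type in 27.5% of tested genes and below it in 16.6%. Of the 10 genes, 9 passed the filter on low values, and Cdkn2c did not. The 9 had a median log2 fold change of 0.16, with 5 positive and 4 negative, where 58.6% of all tested genes were positive. In 4 of the 9 the difference between the 2 libraries of a genotype was larger than the genotype difference.

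**Figure D1:**
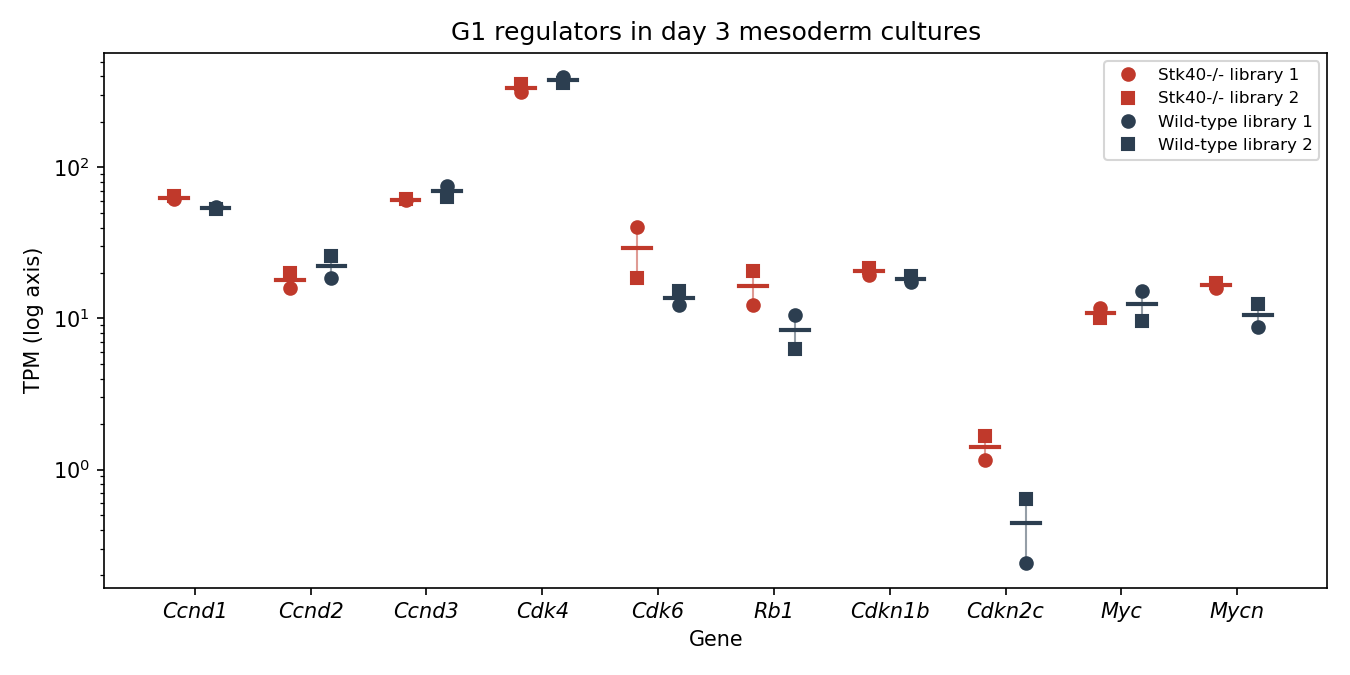
TPM of the 10 G1 regulators on a log axis, with Stk40-/- libraries left of wild-type libraries for each gene; circles are library 1, squares library 2 and horizontal bars the group means. Cdk4 lies far above the other genes at 318 to 395 TPM, Cdkn2c lies lowest, and Cdk6 shows a wide gap between the 2 Stk40-/- libraries.

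Among the D cyclins, Ccnd1 was higher and Ccnd3 lower in both Stk40-/- libraries, and Ccnd2 overlapped. Ccnd1, the D cyclin gene best known as a target of Wnt and growth factor signals (ENSMUSG00000070348.5; GRCm38 chromosome 7, 144929931 to 144939925), had 61.3 and 64.7 TPM in Stk40-/- libraries and 54.3 and 52.7 TPM in wild-type libraries. Its groups were tight and separate, with means of 63.0 ± 2.41 TPM in Stk40-/- and 53.5 ± 1.08 TPM in wild type (SD, n = 2 each). The log2 fold change was 0.23 (SE 0.09, limma adjusted p = 0.472), and with any 1 library left out it stayed between 0.19 and 0.27. It was lower after centring on library medians, at 0.15, and after quantile normalization, at 0.17. Ccnd3, expressed widely across tissues (chromosome 17, 47505051 to 47599691), had 60.8 and 61.7 TPM in Stk40-/- libraries and 75.2 and 63.3 TPM in wild-type libraries. Wild-type library 1 was the high one, and wild-type library 2 lay close to both Stk40-/- libraries. The log2 fold change of Ccnd3 was -0.17 (SE 0.12, limma adjusted p = 0.640), which became -0.05 when wild-type library 1 was left out and -0.29 when wild-type library 2 was. Ccnd2 (chromosome 6, 127125162 to 127152193) had 15.9 and 20.0 TPM in Stk40-/- libraries and 18.6 and 25.9 TPM in wild-type libraries, so the groups overlapped. Its log2 fold change of -0.28 (SE 0.22, limma adjusted p = 0.640) was -0.05 without wild-type library 2.

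The sum of the 3 D cyclins was much alike in all libraries, at 138 and 146 TPM in Stk40-/- and at 148 and 142 TPM in wild type, with overlapping groups. Within that sum the share of Ccnd1 differed by genotype more than by replicate, whereas the shares of Ccnd2 and Ccnd3 differed more between the 2 wild-type libraries than between genotypes. Ccnd1 took 44.4% and 44.2% of D cyclin TPM in the Stk40-/- libraries and 36.7% and 37.2% in the wild-type libraries. The difference of the group means was 7.42 percentage points, and leaving out 1 library at a time gave 7.17 to 7.67. The exact two-sided permutation p was 0.333, the smallest that 2 libraries against 2 can give. Ccnd3 made up 44.0% and 42.1% in Stk40-/- libraries and 50.8% and 44.6% in wild-type libraries (exact two-sided permutation p = 0.333). Ccnd2 made up the least, 11.5% and 13.6% in Stk40-/- and 12.5% and 18.3% in wild type, with overlapping groups (exact two-sided permutation p = 0.667). Ccnd1 and Ccnd3 were thus near equal in Stk40-/- libraries, whereas Ccnd3 was the more abundant of the pair in both wild-type libraries. These shares come from 3 tests of parts of 1 sum, which are not independent.

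**Figure D2:**
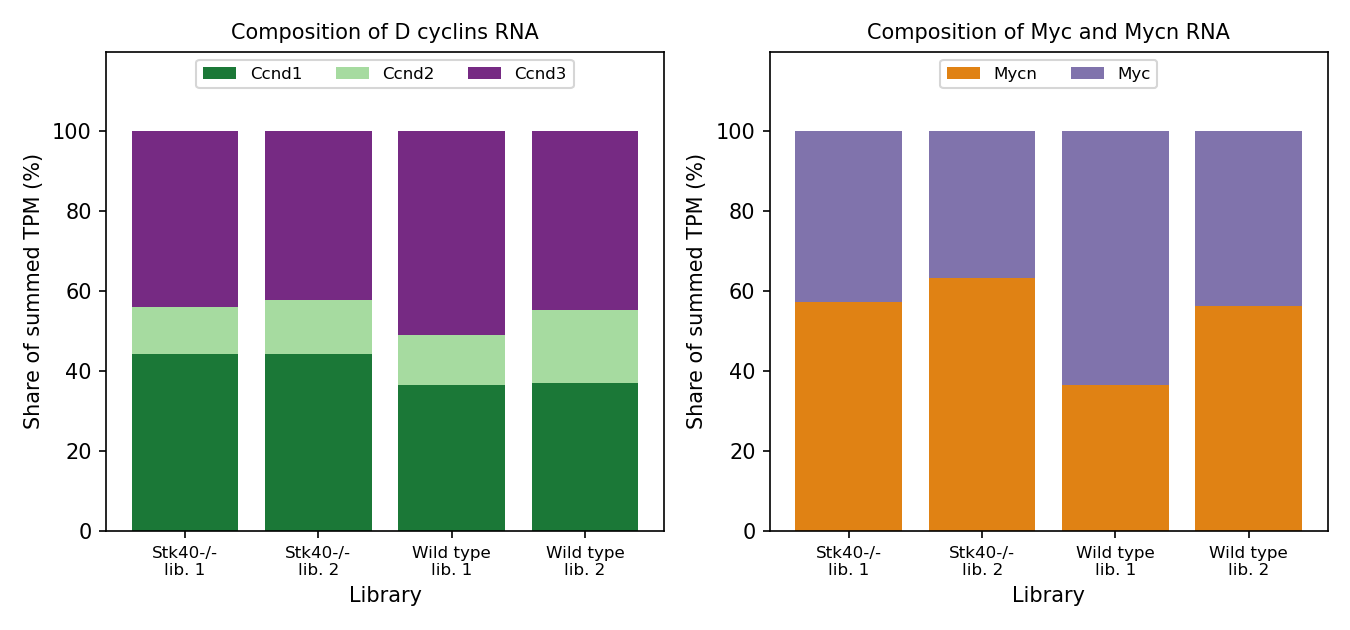
Share of summed TPM, in percent, taken by each D cyclin gene (left) and by Mycn and Myc (right) in the 2 Stk40-/- libraries and the 2 wild-type libraries. The Ccnd1 share is 44.4% and 44.2% in Stk40-/- against 36.7% and 37.2% in wild type, and the Mycn share is lowest in wild-type library 1, at 36.7%.

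Cdk4, the kinase gene with the highest level of the set (chromosome 10, 127063534 to 127067920), was lower in both Stk40-/- libraries, at 318 and 355 TPM, against 395 and 364 TPM in wild-type libraries. The separation was narrow, since Stk40-/- library 2 and wild-type library 2 differed by little. Its log2 fold change was -0.17 (SE 0.09, limma adjusted p = 0.538), and it was -0.09 without Stk40-/- library 1. Cdk6, the second D cyclin kinase (chromosome 5, 3341485 to 3531008), had 40.2 and 18.4 TPM in Stk40-/- libraries and 12.3 and 15.1 TPM in wild-type libraries. Stk40-/- library 1 was far above the other 3, which lay near each other. The log2 fold change of Cdk6 was 0.95 (SE 0.40, limma adjusted p = 0.490), the largest of the 9 tested genes, but the gap from Stk40-/- library 1 to library 2 was larger, at -1.08. Without Stk40-/- library 1 the fold change was 0.41, and without Stk40-/- library 2 it was 1.49. Cdk6 accounted for 11.2% and 4.94% of the summed Cdk4 and Cdk6 TPM in Stk40-/- libraries, against 3.03% and 3.99% in wild-type libraries, so Cdk4 was the main kinase RNA throughout.

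The start of the Cdk4 gene is shown because it carries repeated E-boxes, the motif that Myc-Max dimers bind, and Cdk4 is a known Myc target. The stretch runs from 250 bases before to 50 after the start site given by RefSeq (GRCm38.p6, chr10:127063285-127063584, plus strand), with each CACGTG in capitals:
Cdk4: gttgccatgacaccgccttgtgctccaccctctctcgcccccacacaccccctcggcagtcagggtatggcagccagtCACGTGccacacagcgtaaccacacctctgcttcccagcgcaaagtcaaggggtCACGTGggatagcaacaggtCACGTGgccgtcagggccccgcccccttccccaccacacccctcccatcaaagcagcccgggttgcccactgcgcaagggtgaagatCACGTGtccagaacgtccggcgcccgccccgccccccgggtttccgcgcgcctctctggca
The motif, which reads the same on both strands, occurred 4 times, beginning at bases -172, -118, -98 and -11 from the start site. Over all 32851 promoter stretches of this length in the table, 7.15% held at least 1 such match and 0.0244% (8 stretches) held 4 or more. RefSeq stretches were at hand for 6 of the 10 genes, some with more than 1 start site and 8 in all. There was none for Ccnd1, Ccnd2, Rb1 or Myc, so these genes were not searched for any motif. Among the 8 stretches, that of Cdk6 and 1 of those of Cdkn2c held 1 CACGTG each. The AP-1 motif TGANTCA, present in 7.81% of all stretches, and TGACGTCA, present in 1.79%, were searched on both strands and matched none of the 8, which says only that these letters are not in these windows.

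The Rb1 gene, whose product holds E2F factors in check (chromosome 14, 73183673 to 73325822), had 12.3 and 20.6 TPM in Stk40-/- libraries and 10.6 and 6.31 TPM in wild-type libraries. Both Stk40-/- values were the higher ones, but library 1 of each genotype lay close together. The means were 16.5 ± 5.91 TPM in Stk40-/- and 8.44 ± 3.01 TPM in wild type (SD, n = 2 each), with a log2 fold change of 0.88 (SE 0.36, limma adjusted p = 0.482). Leaving out wild-type library 2 gave 0.55, leaving out Stk40-/- library 2 gave 0.53, and leaving out Stk40-/- library 1 gave 1.23. Library 2 minus library 1 was 0.70 within Stk40-/- and -0.66 within wild type, in opposite directions.

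Of the kinase inhibitors, Cdkn1b (chromosome 6, 134920401 to 134925513) was at 19.4 and 21.7 TPM in Stk40-/- libraries and at 17.4 and 19.2 TPM in wild-type libraries. The lower Stk40-/- value and the higher wild-type value nearly met. Its log2 fold change was 0.16 (SE 0.14, limma adjusted p = 0.654). Per unit of p27 RNA, the D cyclin sum was 7.10 and 6.76 in Stk40-/- libraries and 8.53 and 7.41 in wild-type libraries. Cdkn2c (chromosome 4, 109660876 to 109667189) was the lowest gene of the set, at 1.16 and 1.66 TPM in Stk40-/- libraries and 0.240 and 0.642 TPM in wild-type libraries. Because its mean lay under 1 TPM it was not in the fit used for the other 9. In the fit of all genes above 0 TPM its log2 fold change was 0.75 (SE 0.29, limma adjusted p = 0.638). Rescaling TPM without mitochondrial and ribosomal protein genes lifted it over the filter, and there it was 0.88 (SE 0.50, limma adjusted p = 0.608). Cdkn2c reached that filter through its higher Stk40-/- values, so this fit adds no separate support for the direction. The gene lies on the same chromosome as Stk40 (chromosome 4, 126103957 to 126141029).

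**Figure D3:**
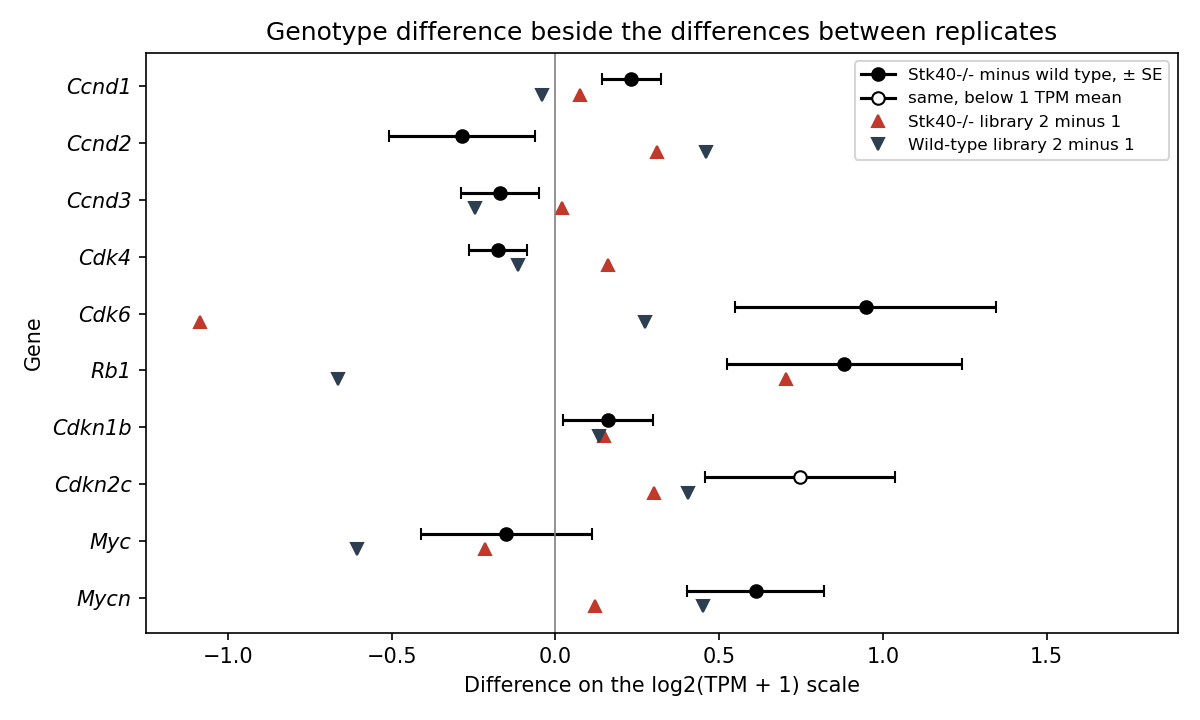
Differences on the log2(TPM + 1) scale for each G1 regulator. Black points are Stk40-/- minus wild type with the standard error from limma (open for Cdkn2c, from the fit of all genes above 0 TPM), upward triangles are Stk40-/- library 2 minus library 1, and downward triangles are wild-type library 2 minus library 1; for Cdk6 the Stk40-/- replicates differ by -1.08, more than the genotype difference of 0.95.

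In the Myc family, Mycn was higher in both Stk40-/- libraries and Myc overlapped. Mycn, the family member prominent in early embryonic progenitors (chromosome 12, 12936093 to 12941914), had 15.8 and 17.3 TPM in Stk40-/- libraries and 8.82 and 12.4 TPM in wild-type libraries. The groups were apart, and the wild-type libraries differed from each other more than the Stk40-/- libraries did. With means of 16.6 ± 1.03 TPM in Stk40-/- and 10.6 ± 2.55 TPM in wild type (SD, n = 2 each), the log2 fold change was 0.61 (SE 0.21, limma unadjusted p = 0.0393, adjusted p = 0.442). Leaving out wild-type library 1 gave 0.39, and leaving out wild-type library 2 gave 0.84. Myc (chromosome 15, 61985391 to 61990374) had 11.8 and 10.0 TPM in Stk40-/- libraries and 15.2 and 9.67 TPM in wild-type libraries. Wild-type library 1 alone was high. The log2 fold change of Myc was -0.15 (SE 0.26, limma adjusted p = 0.844), and without wild-type library 1 it turned to 0.15.

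Mycn made up 57.4% and 63.3% of the summed Myc and Mycn TPM in Stk40-/- libraries, and 36.7% and 56.3% in wild-type libraries (exact two-sided permutation p = 0.333, the smallest possible). The wild-type libraries lay further apart than wild-type library 2 and either Stk40-/- library. The difference of the group means, 13.9 percentage points, became 4.10 when wild-type library 1 was left out and 23.7 when wild-type library 2 was. Wild-type library 1 was also the library with the highest sum of streak and mesoderm markers, and the part of that difference in the Myc and Mycn values was not tested. The summed level of both genes was 27.6 and 27.3 TPM in Stk40-/- and 24.1 and 22.1 TPM in wild-type libraries.

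The Mycn start region is shown because Mycn is a known E2F target, which ties it to the Rb pathway. The stretch (RefSeq, GRCm38.p6, chr12:12941787-12942086, minus strand, written along the gene) has each TTTGGCGC, a common form of the E2F motif, in capitals:
Mycn: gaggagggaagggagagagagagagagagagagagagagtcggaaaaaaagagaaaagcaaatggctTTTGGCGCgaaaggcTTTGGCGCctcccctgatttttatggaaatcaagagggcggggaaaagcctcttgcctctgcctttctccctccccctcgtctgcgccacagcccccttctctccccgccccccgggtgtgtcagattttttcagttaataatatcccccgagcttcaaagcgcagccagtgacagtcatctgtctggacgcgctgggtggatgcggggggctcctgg
The motif was searched on both strands and occurred 2 times, beginning at bases -183 and -168 from the RefSeq start site. At least 1 match stood in 0.514% of all stretches, and 2 stretches in the whole table held 2 or more. The other E2F form searched, TTTCCCGC, stood in 1.07% of all stretches and in none of the 8 of the G1 regulators.

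Some of these genes share exon sequence with genes on the opposite strand in the GENCODE annotation. The sources used here do not say whether reads were assigned by strand, so part of such values may be uncertain. Ccnd1 shares 1100 exonic bases with Oraov1, which had 5.60 and 6.70 TPM in Stk40-/- and 11.9 and 11.4 TPM in wild-type libraries, the opposite direction to Ccnd1. Cdk4 shares 641 bases with Tspan31, which had 91.7 and 87.1 TPM in Stk40-/- and 102 and 80.0 TPM in wild type. Rb1 shares 488 bases with Rcbtb2 and 408 with Lpar6, a receptor gene lying within it, and Ccnd3 shares 361 with Bysl. Lpar6 stood at 15.9 and 18.2 TPM in Stk40-/- and at 19.0 and 16.5 TPM in wild type. Of the 5 overlapping genes named, Oraov1 had separate groups and the other 4 had groups that overlapped.

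Profiles over the 4 libraries most like those of the 2 genes with the largest fold changes were sought among the 10897 genes averaging 5 TPM or more, by Euclidean distance of the centred log2(TPM + 1) values. For Cdk6 the nearest was Col2a1, a collagen gene, at a distance of 0.10 with 11.8 and 5.12 TPM in Stk40-/- and 2.85 and 3.74 TPM in wild-type libraries. Next came Zfp618 at 0.17 and Duxbl3 at 0.18. All 3 shared with Cdk6 a high value in Stk40-/- library 1. For Rb1 the nearest were Rasl11b at 0.26, Fam219b at 0.27 and Zfp563 at 0.28, each highest in Stk40-/- library 2 and lowest in wild-type library 2. With 4 libraries such likeness is a description only.

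The wider pathway was followed in 5 lists of genes around these regulators, and 0 of their members passed limma over all genes tested (0.0% called over all genes). An unadjusted p under 0.05 was met by 2 genes of the G1 and S phase machinery, 1 turnover gene, 1 gene of the Myc-Max network, 9 Myc targets and 5 Rb-E2F targets, beside 11.0% of all tested genes. Of 31 other genes of the G1 and S phase machinery (E cyclins, Cdk2, E2F factors, pocket proteins and further inhibitors), all 31 were tested, 24 had positive and 7 negative fold changes, and the median log2 fold change was 0.13. The largest difference in size was that of Cdkn1c, the imprinted gene of the p57 inhibitor, with 9.77 and 16.7 TPM in Stk40-/- libraries and 39.6 and 36.0 TPM in wild-type libraries. Its log2 fold change was -1.49 (SE 0.27, limma adjusted p = 0.306), and with 1 library left out it ranged from -1.85 to -1.13. Cdc25b, a phosphatase that activates cyclin-dependent kinases, had 15.3 and 15.6 TPM in Stk40-/- and 9.93 and 11.6 TPM in wild-type libraries. E2f8, an E2F factor that represses transcription, had 14.6 and 13.8 TPM in Stk40-/- and 8.51 and 11.5 TPM in wild type, and E2f5 had 51.6 and 42.1 TPM in Stk40-/- and 38.3 and 36.4 TPM in wild type. Both groups were separate for all 4 of these genes, and 14 of the 31 were separate, with 10 above and 4 below, beside 44.0% of all tested genes (27.5% above and 16.6% below).

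Of 25 genes that govern the turnover of cyclins, p27 and Myc, 16 had positive and 9 negative fold changes, with a median of 0.06, next to the 0.07 of all tested genes. Aurka, a mitotic kinase that also stabilises the N-Myc protein, had 116 and 108 TPM in Stk40-/- and 92.8 and 95.2 TPM in wild-type libraries. Huwe1, a ubiquitin ligase with Myc proteins among its substrates, had 118 and 116 TPM in Stk40-/- and 99.1 and 103 TPM in wild type. Rnf123, a subunit of a ubiquitin ligase for p27, had 11.3 and 11.2 TPM in Stk40-/- and 8.46 and 8.53 TPM in wild type. The limma adjusted p of these 3 lay between 0.442 and 0.484.

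In the Myc-Max network, 17 genes were tested, 8 positive and 9 negative, with a median of -0.03. Max, the obligate partner of Myc and Mycn, had 62.4 and 76.8 TPM in Stk40-/- libraries and 83.3 and 116 TPM in wild-type libraries, a log2 fold change of -0.50 (SE 0.21, limma adjusted p = 0.484). It ranged from -0.74 to -0.26 with 1 library left out. Mycl, the third family member, had 8.12 and 7.74 TPM in Stk40-/- and 12.1 and 11.1 TPM in wild type. Mxi1, which competes with Myc for Max, had 6.08 and 6.17 TPM in Stk40-/- and 3.91 and 4.08 TPM in wild type, and Mxd3, of the same antagonist class, had 3.72 and 5.39 TPM in Stk40-/- and 7.09 and 6.53 TPM in wild type. The further antagonists of the Mxd and Mnt type in the list had negative fold changes, as Mxd3 had. Members of the network lay on both sides. Groups were separate with 5 above and 6 below, beside 27.5% and 16.6% of all tested genes.

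Of 30 Myc target genes of ribosome biogenesis and metabolism, 27 had positive and 3 negative fold changes, with a median of 0.12. Groups were separate in 20, with 17 above and 3 below, where 27.5% of all tested genes lay above and 16.6% below. The helicase gene Eif4a1 had 3014 and 2863 TPM in Stk40-/- and 2608 and 2564 TPM in wild-type libraries. Odc1, the first enzyme of polyamine synthesis, had 674 and 700 TPM in Stk40-/- and 584 and 607 TPM in wild type, and Cad, of pyrimidine synthesis, had 104 and 109 TPM in Stk40-/- and 84.9 and 89.3 TPM in wild type. Ncl, the nucleolin gene, had 889 and 843 TPM in Stk40-/- and 717 and 566 TPM in wild type, with a log2 fold change of 0.44 (SE 0.13, limma adjusted p = 0.407) that ranged from 0.27 to 0.61 with 1 library left out. Of 24 Rb-E2F target genes of S phase entry, 18 had positive and 6 negative fold changes, with a median of 0.14, and groups were separate in 15, with 12 above and 3 below, again beside 27.5% and 16.6% of all tested genes. The ribonucleotide reductase gene Rrm2 had 287 and 308 TPM in Stk40-/- and 239 and 254 TPM in wild type. Uhrf1, which maintains DNA methylation, had 178 and 192 TPM in Stk40-/- and 152 and 154 TPM in wild type, and Slbp, the histone stem-loop binding protein gene, had 170 and 176 TPM in Stk40-/- and 149 and 139 TPM in wild type. Rfc4, a clamp loader subunit, was the reverse, at 73.1 and 73.5 TPM in Stk40-/- against 91.4 and 92.2 TPM in wild type. The lists were not tested as sets, and their counts stand beside 58.6% of positive fold changes over all tested genes.

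**Figure D4:**
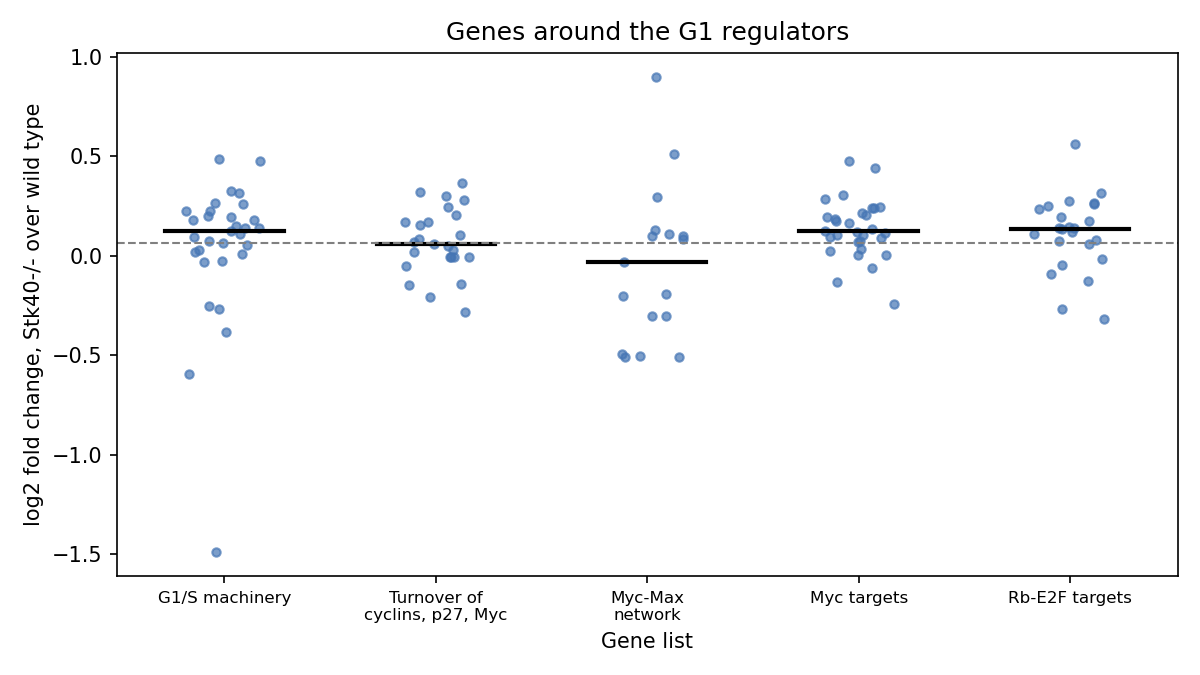
Log2 fold change of Stk40-/- over wild type for each tested gene of 5 lists around the G1 regulators; black bars are list medians and the dashed line is the median of all tested genes, 0.07. The medians of the G1/S machinery, Myc target and Rb-E2F target lists are 0.13, 0.12 and 0.14, and the lowest point is Cdkn1c at -1.49.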

How the data were processed

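Polyadenylated RNA was read as pairs of 100 or 150 bases on either of 2 instruments, per the labels' protocols. The sources used here do not tie libraries to instruments, so instrument and genotype cannot be told apart. The authors deposited 1 table of TPM values for all genes, per the file headers. CASAVA 1.7, Salmon 0.8.2 and the build hg38 are named per the submitters' processing notes, although the gene IDs are mouse ones. TPM keeps no depth, and a rise of a few abundant RNAs lowers the others. Groups came from the sample titles, and there were 0 per-sample columns left unused.

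The 15739 genes averaging 1 TPM or more were tested in limma 3.58.1 (R 4.3.3) after log2(TPM + 1) transformation (empirical Bayes with an intensity trend, no block, Benjamini-Hochberg adjustment over those genes, threshold 0.05). The procedure was checked on simulated data. Shares were compared with an exact permutation test (scipy 1.17.1). Positions and exon overlaps were read from GENCODE vM21 (GRCm38) through Ensembl IDs without versions, and promoter stretches from RefSeq. The G1 regulators and all lists were chosen with earlier results of these data known. Besides the 10 G1 regulators and Stk40, the text names the 4 genes per list with the smallest unadjusted p at a mean of at least 5 TPM, the nearest profiles, and genes that overlap exons. Of the genes this rule names, 1 is not reported here. In the turnover list, Cop1 was taken as Rfwd2. The alternatives were pseudocounts of 0.1 and 0.01, filters above 0 and at 5 TPM, rescaled, centred or quantile-normalized values, no trend, a replicate block, and each library left out.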

Additional observations from a re-analysis of the deposited data

How the results depend on the processing

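Limma called 0 genes, 0 of the G1 regulators and 0 pathway list members under all 13 alternatives, as with the settings used (1730 genes at an unadjusted p under 0.05, and 985 to 2229 under the alternatives). The smallest adjusted p of any G1 regulator was 0.339, for Mycn with the replicate block (0.339 to 0.738 over the alternatives for Mycn). The log2 fold change of Myc, -0.15, reversed to 0.15 without wild-type library 1 (range -0.45 to 0.15 with 1 library left out), and those of the other 8 tested G1 regulators kept their sign. The median of the tested G1 regulators, 0.16, was 0.20 over all genes above 0 TPM and 0.19 after rescaling without mitochondrial and ribosomal protein genes. Both had Cdkn2c added (0.16 in each over the same 9 genes). It was 0.081 after centring on library medians and 0.084 after quantile normalization. With 1 library left out it ran from 0.087 to 0.24. The spread the median was judged against was 0.01. That is far smaller than replicate differences of single genes, such as -1.08 for Cdk6 and 0.70 for Rb1 between the Stk40-/- libraries. It therefore does not measure how certain the median is. Centring moved the median of all tested genes from 0.07 to -0.02. It lowered every fold change by the same amount, so counts of positive fold changes depend on the scaling. Those counts, for the lists and for all tested genes, were taken with the settings used only. Same-numbered libraries deviated together weakly (r = 0.0893 across 15739 genes, not independent replicates), so the numbers were not taken to pair them, and with the replicate block 0 genes were called. With 1 library left out, the lone library of a genotype is assumed to vary like the other group. The depth is unknown, so the counting error of the low values, such as those of Cdkn2c, cannot be given.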
